A study of Mus musculus with 6 samples.

Results

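The 9 Toll-like receptor genes Tlr1, Tlr2, Tlr3, Tlr4, Tlr6, Tlr7, Tlr8, Tlr9 and Tlr13, and Cd14, were followed in macrophages sorted from mouse brain. They were picked by symbol, 10 of the 35598 genes in the tables, and each of the 10 had enough reads to be tested. The samples are labelled CAMs (macrophages associated with the central nervous system, which sit at the brain's borders) and came from male C57BL/6 mice. Cells positive for CD11b, CD45 and CD206 and negative for CD3 were sorted from the brain, and their RNA was amplified from a low input before sequencing. There were 3 libraries at 2 months of age (young) and 3 at 18 months (aged). The labels do not say whether each library came from its own animal, so the p-values reflect the spread among these 6 libraries, which could be technical.

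Toll-like receptors are membrane proteins of innate immunity that recognize molecules of microbes and, in some settings, of damaged cells. Tlr1, Tlr2, Tlr4 and Tlr6 act at the cell surface, where they bind bacterial lipopeptides (Tlr2 paired with Tlr1 or Tlr6) and lipopolysaccharide (Tlr4). Tlr3, Tlr7, Tlr8, Tlr9 and Tlr13 act in endosomes, where they sense nucleic acids. Cd14 is a surface co-receptor that hands lipopolysaccharide to Tlr4 and its partner MD-2. Most of these receptors signal through the adaptor Myd88 to NF-kB and interferon regulatory factors.

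Libraries held 26605077 to 33306093 counts. The CD206 gene Mrc1 was at 2770, 2940 and 2674 CPM (counts scaled to library depth, with TMM factors between libraries) in the young libraries. In the aged libraries Mrc1 was at 2345, 1182 and 1306 CPM, each lower than any young one. The summed level of 10 border macrophage markers was lower in each aged library (7700 to 16425 CPM) than in any young one (23873 to 27258 CPM). Pf4 and Ms4a7 were the most abundant of these markers. Taken singly, 5 of the 10 were lower in each aged library, against 7.19% of all genes tested. Cd163, Cbr2, Folr2, F13a1 and Stab1 overlapped between ages. The sum of 10 microglia markers went the other way, with 5046 to 7725 CPM at 2 months and 9865 to 17022 CPM at 18 months. Neutrophil markers summed to 12038 to 37761 CPM in the young libraries and to 21559, 7804 and 6.65 CPM in aged replicates 1, 2 and 3. Since all values come from bulk RNA, fewer cells of a type and less RNA per cell cannot be told apart.

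No member was called in either direction. Aged and young libraries were compared with edgeR's quasi-likelihood test over 10661 genes, with an adjusted p under 0.05 as the threshold. Of the 10 members 0 were called higher, against 0.00938% of all genes tested, and 0 were called lower, against 0.0%. At an unadjusted p under 0.05 there was 1 higher member, Cd14, and 0 lower ones, and the share of all genes was 3.63% higher and 2.04% lower. DESeq2, limma-voom and limma-trend on TPM also called 0 members and each had 1 at an unadjusted p under 0.05. Fitted fold changes were above 0 for 8 of the 10 members, against 49.3% of all genes, and their median log2 fold change was 0.74, against -0.02 over all genes.

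**Figure D1:**
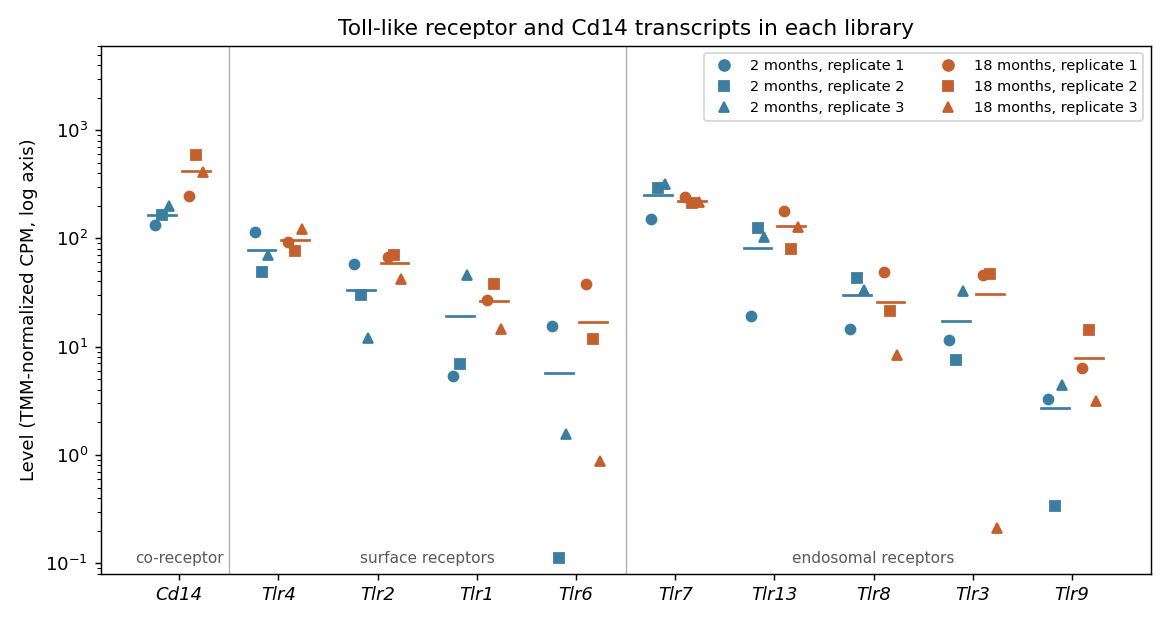
Level of each member in each library, in TMM-normalized CPM on a log axis. Symbols are single libraries, colours are ages and bars are group means. Cd14 is the 1 gene whose aged libraries all lie above its young ones, and Tlr6, Tlr3 and Tlr9 have single libraries far below their group means.

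Cd14, the lipopolysaccharide co-receptor, was the 1 member whose age groups did not overlap in CPM. It was at 133.0, 165.6 and 198.5 CPM in the young libraries and at 248.4, 586.8 and 414.5 CPM in the aged ones. Every aged library was above every young one, which was true of 7.54% of all genes tested and of 11.2% of the 2189 genes averaging at least 50 CPM. No member was lower in each aged library, which was true of 7.19% and 8.45% of the same genes. The means were 165.7 ± 32.8 and 416.6 ± 169.3 CPM (SD, n = 3 each). The log2 fold change was 1.33 (SE 0.38), a fold of 2.51, with an edgeR adjusted p = 0.619 (unadjusted p = 0.00646). So the age groups lay apart, with the aged libraries spread from 248.4 to 586.8 CPM, but the difference did not pass the threshold over all genes.

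Without any 1 library the log2 fold change of Cd14 lay between 1.00 and 1.60. With the test limited to genes averaging at least 50 CPM, its edgeR adjusted p = 0.0747, and the DESeq2 adjusted p = 0.0879. Microglia also transcribe Cd14. The microglia marker sum was 9865, 17022 and 13580 CPM in aged replicates 1, 2 and 3, against 5046 to 7725 CPM in the young libraries. Its part in the Cd14 difference was not tested. Neutrophils carry Cd14 as well. Neutrophil markers summed to 21559, 7804 and 6.65 CPM in aged replicates 1, 2 and 3, against 12038 to 37761 CPM in the young libraries. The part of neutrophils in the Cd14 difference was not tested.

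Tlr4, the lipopolysaccharide receptor that Cd14 serves, was measured well and did not separate the ages. It was at 115.5, 48.6 and 71.0 CPM in the young libraries and at 92.7, 75.9 and 121.8 CPM in the aged ones. The groups overlapped through young replicate 1, while the other young libraries lay below every aged one. The log2 fold change of Tlr4 was 0.30 (SE 0.47, edgeR adjusted p = 0.993). Ly96, which encodes MD-2, the lipopolysaccharide-binding partner of Tlr4, went from 1140 ± 255.7 to 570.8 ± 337.4 CPM (log2 fold change -1.0 with an SE of 0.45, edgeR adjusted p = 0.883), with the highest aged library just above the lowest young one. The 3 genes of lipopolysaccharide recognition thus had fitted values in different directions, none past the threshold. Ly96 was picked for its role after its values were seen.

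Tlr2, the shared partner of the lipopeptide receptors, was at 58.3, 30.0 and 11.9 CPM at 2 months and at 66.7, 70.1 and 42.0 CPM at 18 months. The young libraries were spread over a wider range, and the highest of them lay above the lowest aged one. For Tlr2 the log2 fold change was 0.84 (SE 0.68, edgeR adjusted p = 0.993).

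Tlr1 and Tlr6, neighbouring genes on chromosome 5, encode the partners that set which lipopeptides Tlr2 binds. Part of their transcripts cannot be told apart by short reads. The longest identical stretch of the 2 coding transcripts is shown because a read that falls within it could come from either gene. It has 229 bases in a coding exon of each gene, at mm10 chr5:64925537-64925765 in Tlr1 and chr5:64953828-64954056 in Tlr6, both on the minus strand, and was read 5′ to 3′ from the GENCODE M21 transcripts Tlr1-202 and Tlr6-201.
Tlr1 and Tlr6: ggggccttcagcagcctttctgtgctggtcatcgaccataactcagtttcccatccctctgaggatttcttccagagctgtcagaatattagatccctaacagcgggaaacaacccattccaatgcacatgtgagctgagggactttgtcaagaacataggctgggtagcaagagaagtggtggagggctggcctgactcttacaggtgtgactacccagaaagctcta

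Of the 50-base windows of the Tlr1 transcript, 454 of 2976 (15.3%) occur in Tlr6, and these are 12.5% of the 3628 windows of Tlr6. Every other pair of members shares 0 such windows, and the next longest identical run, between Tlr4 and Tlr6, has 18 bases. In 2 of the 6 libraries the estimated counts of both Tlr1 and Tlr6 were fractional and added up to a whole number within 0.011. The split of reads between these 2 genes is therefore uncertain.

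Tlr1 was at 5.32, 6.85 and 45.5 CPM in the young libraries and at 26.8, 38.3 and 14.5 CPM in the aged ones. Its highest and its 2 lowest libraries were all young. The log2 fold change of Tlr1 was 0.47 (SE 1.05, edgeR adjusted p = 0.997), and 2.13 without young replicate 3. Tlr6 was at 15.4, 0.112 and 1.57 CPM at 2 months and at 37.9, 11.8 and 0.884 CPM at 18 months. The lowest of these rests on 3 counts, the floor used here, and the highest on 1092 counts. The log2 fold change of Tlr6 was 1.57 (SE 1.86, edgeR adjusted p = 0.993), with 4.32 without young replicate 1 and 0.15 without aged replicate 1. The fitted fold of 2.97 lay within the spread between libraries.

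Tlr7, an endosomal sensor of single-stranded RNA on the X chromosome, was the receptor with the most counts in every library, at 4746 to 8891. It was at 152.0, 291.1 and 318.0 CPM at 2 months and at 238.9, 213.0 and 218.3 CPM at 18 months. The 3 aged libraries sat inside the young range, with a coefficient of variation of 6.11% against 35.1% in the young ones. For Tlr7 the log2 fold change was -0.18 (SE 0.36, edgeR adjusted p = 0.993), and 0.02 without young replicate 3.

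Tlr13, which recognizes bacterial ribosomal RNA and has no human counterpart, was at 19.1, 124.5 and 103.7 CPM in the young libraries and at 179.5, 79.2 and 128.1 CPM in the aged ones. Young replicate 1 lay below the other 5 libraries, as it did for Tlr7. The log2 fold change of Tlr13 was 0.65 (SE 0.64, edgeR adjusted p = 0.993), and 0.18 without young replicate 1. Tlr8, the X-linked neighbour of Tlr7, was at 14.6, 42.8 and 33.2 CPM at 2 months and at 48.6, 21.2 and 8.31 CPM at 18 months. Both the highest and the lowest library of Tlr8 were aged, and the log2 fold change was -0.21 (SE 0.88, edgeR adjusted p = 0.997), with 0.12 without young replicate 2 and 0.22 without aged replicate 3.

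Tlr3, the sensor of double-stranded RNA that signals through Ticam1 rather than Myd88, was at 11.5, 7.52 and 32.8 CPM at 2 months and at 45.6, 47.0 and 0.212 CPM at 18 months. Aged replicates 1 and 2 were above every young library, while aged replicate 3 held 6 counts. For Tlr3 the log2 fold change was 0.84 (SE 1.40, edgeR adjusted p = 0.993), 1.42 without aged replicate 3 and -0.56 in limma-voom. Tlr3 overlaps a gene on the opposite strand, Gm45542, which held 6.51 counts over all libraries against 4611 for Tlr3.

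Tlr9, the sensor of unmethylated CpG DNA, was the member with the lowest mean, at 3.30, 0.335 and 4.44 CPM at 2 months and 6.32, 14.3 and 3.15 CPM at 18 months. The groups overlapped, and the log2 fold change was 1.56 (SE 1.73, edgeR adjusted p = 0.993). B cells are a known source of Tlr9 transcripts. Their 10 markers summed to 75.9 to 130.9 CPM at 2 months and to 135.3, 21.0 and 7.49 CPM at 18 months. Their part in the Tlr9 levels was not tested.

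**Figure D2:**
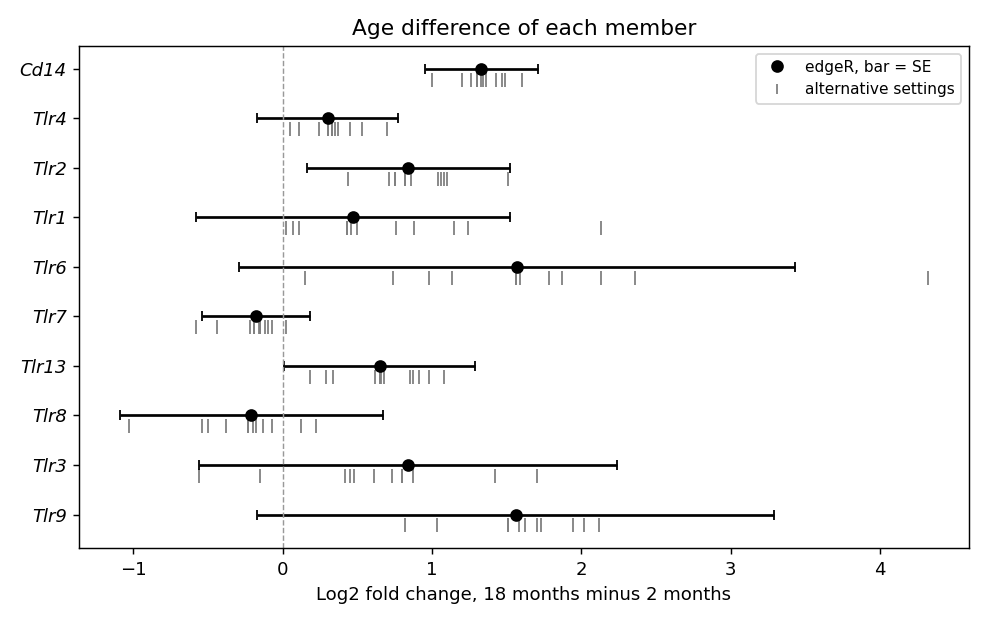
Log2 fold change of each member, 18 months minus 2 months. Points are the edgeR values with bars of 1 SE, and grey ticks are the same fold change under the alternative settings. Cd14 stays between 1.00 and 1.60, while the values of Tlr3, Tlr7 and Tlr8 fall on both sides of 0.

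Levels of different genes can be compared only per length, and here the length mattered. The deposited TPM divides reads by an effective length that depends on which transcript models of a gene took its reads. For Cd14, Tlr2, Tlr1 and Tlr9 this length was steady, such as 1290 to 1390 bases for Cd14. For Tlr7 it was 149 to 690 bases, although the longest coding transcript of Tlr7 in GENCODE M21 has 3897 bases. Tlr8 had 236 to 612 bases against 3431. The annotation lists 3 models under 1000 bases for each of Tlr7 and Tlr8. The Tlr7 models of 384 and 366 bases lie wholly within exons of the longest one, so a read from there could come from either. Tlr3 ranged from 222 to 3445 bases and Tlr6 from 268 to 3383.

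**Figure D3:**
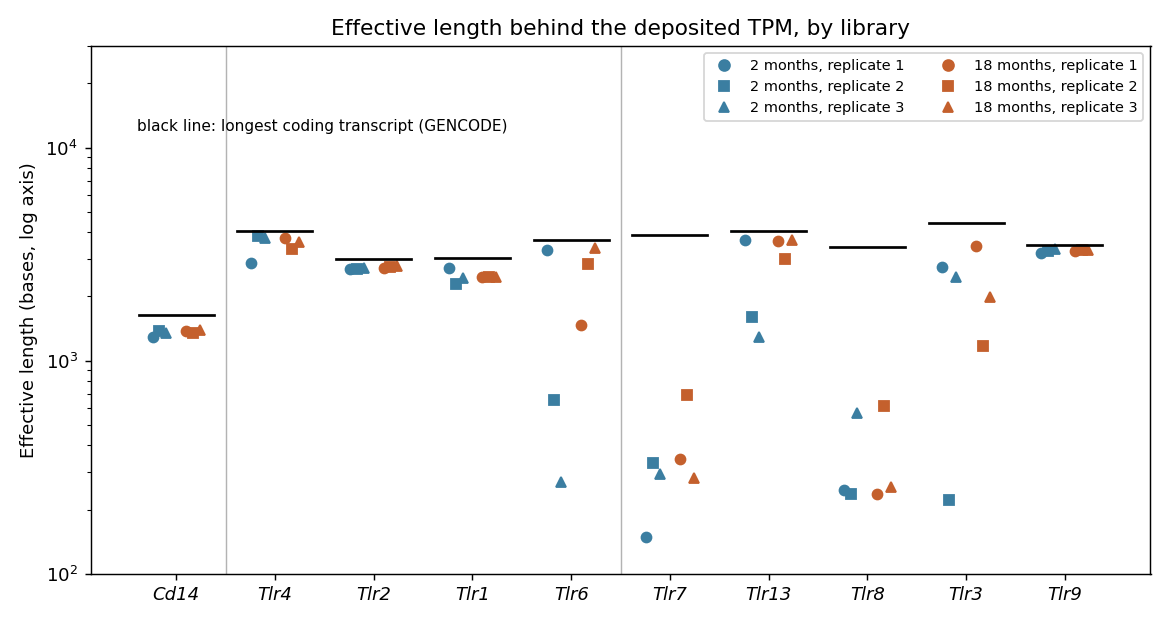
Effective length of each member in each library, in bases on a log axis, with the longest coding transcript as a black line. Tlr7 and Tlr8 lie far below their line in all 6 libraries, and Tlr3, Tlr6 and Tlr13 move between libraries.

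Both scales put Tlr7 first among the receptors, by very different margins. On the TPM scale Tlr7 was at 393.3, 359.1 and 439.4 in young and 283.5, 199.1 and 327.6 in aged libraries. Each aged library was thus lower (means 397.3 ± 40.3 and 270.1 ± 65.3, n = 3 each). The share of all genes lower in each aged library was not counted in TPM. The log2 fold change of Tlr7 on log2(TPM + 1) was -0.58 (limma-trend adjusted p = 0.644). In CPM, which takes no length into account, the age groups of Tlr7 overlapped. Cd14 was at 49.6 ± 10.1 and 160.3 ± 108.5 TPM, below Tlr7 in each library except aged replicate 2 (281.9 against 199.1 TPM), so their ranges overlapped in the aged libraries. On the scale of CPM per kilobase of the longest coding transcript, chosen after the effective lengths were seen, Cd14 had the higher mean in both age groups. There Cd14 was at 101.0 ± 20.0 and 253.9 ± 103.1, and Tlr7 at 65.1 ± 22.9 and 57.3 ± 3.50. The ranges of Cd14 and Tlr7 overlapped in the young libraries and lay apart in the aged ones.

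Below Tlr7, on the same per-kilobase scale, came Tlr13 (20.3 ± 13.7 in young and 31.8 ± 12.3 in aged), Tlr4 (19.2 ± 8.35 and 23.7 ± 5.70) and Tlr2 (11.1 ± 7.77 and 19.8 ± 5.09). Neighbours among these 3 did not differ beyond their range in either age group. Tlr8, Tlr1, Tlr3, Tlr6 and Tlr9 followed, from 8.80 ± 4.18 for Tlr8 down to 0.773 ± 0.609 for Tlr9 in young libraries. Neighbours among these genes overlapped in both age groups, with Tlr1 before Tlr8 in the aged libraries. In the young libraries the order had 1 gap without overlap, between Tlr7 and Tlr13. In the aged libraries it had 3 gaps without overlap, between Cd14 and Tlr7, Tlr7 and Tlr13, and Tlr2 and Tlr1.

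The endosomal receptors together exceeded the surface receptors in every library on the TPM scale. The 5 endosomal receptors summed to 420.1, 478.4 and 501.9 TPM in young and 394.7, 267.0 and 356.3 TPM in aged libraries, so each aged library was lower. The 4 surface receptors summed to 26.3, 11.0 and 19.4 TPM in young and 35.2, 43.7 and 23.1 TPM in aged libraries, with an overlap between groups. The ratio of endosomal to surface receptors was 16.0, 43.5 and 25.9 in the young libraries and 11.2, 6.11 and 15.4 in the aged ones, again without overlap. Tlr7 alone made up 71.8% to 93.6% of the endosomal sum. Without Tlr7 and Tlr4, the receptors with the highest mean TPM of each class, the TPM ratio was 2.46, 20.4 and 5.33 in young and 4.43, 2.34 and 3.21 in aged libraries and overlapped, and the endosomal means were 69.5 ± 46.6 and 69.3 ± 41.3 TPM. The class means of log2(TPM + 1) overlapped too, at 4.14 ± 0.73 and 4.15 ± 0.698 for the endosomal receptors. No test was made of these sums, since the genes were chosen with results known.

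Per kilobase of fixed length, the age groups overlapped in both sums and in the ratio. The endosomal receptors then summed to 51.5, 119.6 and 125.5 in young and 131.8, 95.1 and 91.0 CPM per kilobase in aged libraries. The surface receptors summed to 53.6, 24.2 and 36.8 in young and 64.1, 57.7 and 48.8 CPM per kilobase in aged libraries. The ratio was 0.961, 4.95 and 3.41 in young and 2.06, 1.65 and 1.86 in aged libraries. Endosomal receptors were the more abundant class in 5 of these 6 libraries, young replicate 1 excepted. The lower endosomal level with age that TPM shows was thus not seen when each gene kept 1 length in all libraries.

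**Figure D4:**
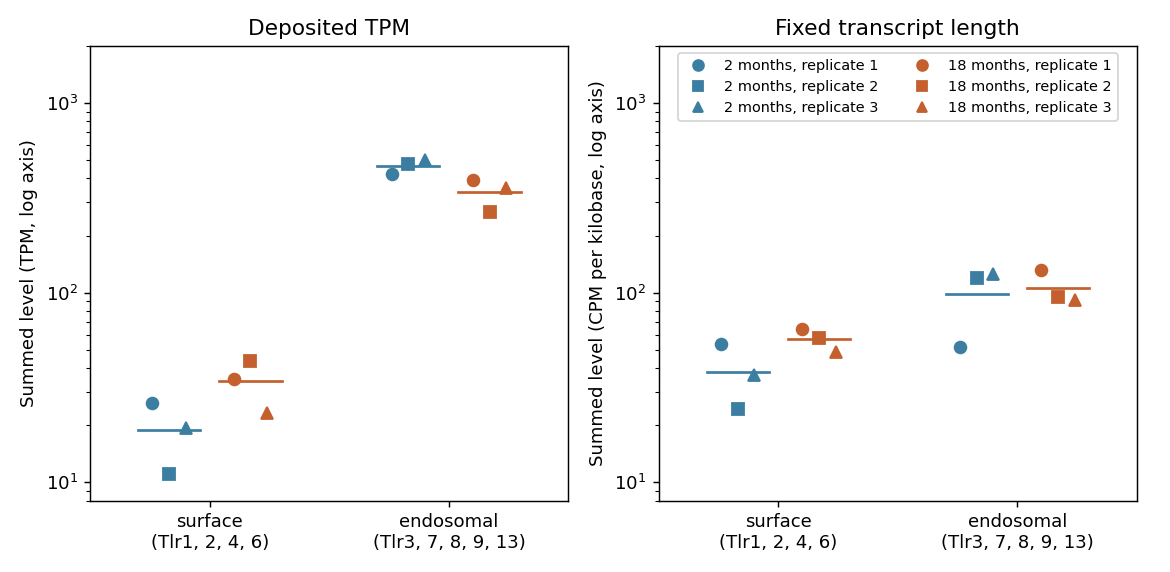
Summed level of surface and endosomal receptors in each library, as deposited TPM (left) and as CPM per kilobase of the longest coding transcript (right), both on log axes with group means as bars. The endosomal sum of the 3 aged libraries lies below the young ones on the left. On the right the age groups overlap, and aged replicate 1 is the highest library.

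The other mouse receptors listed, Tlr5, Tlr11 and Tlr12, were detected unevenly between libraries. Tlr5, the flagellin receptor, held 180, 0 and 2 counts in young and 3, 633 and 1 counts in aged libraries. Tlr11 held 0, 0 and 114 counts and 0, 1 and 80 counts, and Tlr12 at most 25 counts in any library. None of the 3 passed the filter on low counts, and each was carried by 1 or 2 libraries.

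Of the 14 listed co-receptors, chaperones and proteases of the pathway, all 14 were tested, with 0 called by edgeR, 4 higher and 0 lower at an unadjusted p under 0.05, and a median log2 fold change of 0.28. Shares of all genes at that unadjusted p were 3.63% higher and 2.04% lower. The 3 whose aged libraries all lay above the young ones, as in 7.54% of all genes tested, were lysosomal proteases that can trim endosomal receptors. Ctss was at 9135 ± 1702 and 16893 ± 2557 CPM (log2 fold change 0.89 with an SE of 0.27, edgeR adjusted p = 0.637), Ctsb at 2381 ± 402.3 and 4838 ± 1523 CPM, and Lgmn at 426.5 ± 20.4 and 758.2 ± 283.0 CPM. The fourth with an unadjusted p under 0.05 was Cnpy3, a chaperone of several of these receptors, at 31.9, 9.79 and 11.4 CPM at 2 months and 27.4, 94.0 and 136.3 CPM at 18 months (edgeR adjusted p = 0.707). Unc93b1, the chaperone that carries endosomal receptors out of the endoplasmic reticulum, was at 132.4 ± 64.1 and 228.4 ± 139.2 CPM with an overlap between groups. Cnpy3 and Unc93b1 were picked after their values were seen.

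Among 24 adaptors, kinases and transcription factors, 19 were tested and 0 were called by edgeR, with 0 at an unadjusted p under 0.05 and a median log2 fold change of 0.55. Of the 19, 1 was higher and 1 lower in each aged library, against 7.54% and 7.19% of all genes tested. The lower one was Irak4, the kinase that Myd88 recruits, at 27.7, 35.6 and 33.4 CPM at 2 months and 14.4, 23.1 and 0.283 CPM at 18 months (log2 fold change -1.36 with an SE of 1.25, edgeR adjusted p = 0.993). The most abundant of the list were Pik3ap1 (103.6 ± 21.5 and 126.3 ± 35.2 CPM), which links receptors to PI3-kinase, and Irf5 (51.3 ± 41.9 and 69.3 ± 37.8 CPM), a transcription factor activated through Myd88. Myd88 itself, named here for its role, was at 12.5 ± 1.19 and 30.6 ± 26.4 CPM, with the aged mean set by 60.8 CPM in aged replicate 2. Without strand information, reads of Irak4, Myd88 and Irf5 are uncertain where they overlap genes on the opposite strand (Twf1, Acaa1a and Tnpo3), and Twf1 held more counts than Irak4 over the 6 libraries (11539 against 4072).

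Of the 12 inhibitors, 10 were tested, 0 were called by edgeR, 0 had an unadjusted p under 0.05, and the median log2 fold change was -0.12. In this list 2 genes were higher and 0 lower in each aged library, against 7.54% and 7.19% of all genes tested. Tnfaip3, which encodes the deubiquitinase A20, was at 11.1, 0.186 and 0.0358 CPM at 2 months and 13.2, 13.7 and 40.8 CPM at 18 months, without overlap (log2 fold change 2.58 with an SE of 1.88, edgeR adjusted p = 0.983). Its young values rest on 346, 5 and 1 counts, the last below the floor of 3 counts. The highest young and lowest aged library, at 11.1 and 13.2 CPM, lay close together. The most abundant were Nrros, a binding protein that restrains the receptors (110.9 ± 15.1 and 103.0 ± 40.8 CPM), and Inpp5d, the phosphatase SHIP1 (110.4 ± 28.2 and 75.8 ± 32.5 CPM).

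Of 20 listed targets that these receptors induce, 14 were tested, with 0 called by edgeR, 0 higher and 1 lower (Ccl2) at an unadjusted p under 0.05, and a median log2 fold change of -0.36. The cytokine gene Il1a was at 63.0, 1.34 and 67.0 CPM at 2 months and 139.2, 168.3 and 175.5 CPM at 18 months (log2 fold change 1.88 with an SE of 0.98, edgeR adjusted p = 0.920). The chemokine genes Ccl2 and Ccl3 were the 2 lower in each aged library, and Il1a was the 1 higher. Among all genes tested these shares were 7.19% and 7.54%, and 2.04% were lower at an unadjusted p under 0.05. Ccl2 was at 597.0 ± 305.1 and 157.7 ± 60.5 CPM (log2 fold change -1.92 with an SE of 0.48, edgeR adjusted p = 0.546) and Ccl3 at 96.0 ± 21.5 and 47.2 ± 23.7 CPM.

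The genes whose pattern over the 6 libraries was nearest to that of 3 members were found among 2188 genes averaging at least 50 CPM, by the root mean square difference of centred log2(CPM + 1). For Cd14 they were Sdf2l1 (0.14), Eif5a (0.15) and Ergic3 (0.18), against a median of 0.97 over all genes compared. For Tlr4 they were Stt3a (0.14), Ptges3 (0.15) and Sri (0.15), and for Tlr7 they were Dram2 (0.14), Adi1 (0.14) and Ube2l3 (0.15), with medians of 0.67 and 0.62. The root mean square of the centred values themselves was 0.74 for Cd14, 0.45 for Tlr4 and 0.34 for Tlr7. The 3 smallest of 2188 differences over 6 libraries lie far below a median by selection, so no particular likeness follows from them.

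In mm10, with GENCODE M21, Cd14 lies on chromosome 18 from 36725067 to 36726798, Tlr4 on chromosome 4 from 66827584 to 66930284 and Tlr2 on chromosome 3 from 83836272 to 83841767. Tlr1 and Tlr6 lie on chromosome 5 from 64924679 to 64933563 and from 64952031 to 64960097. Tlr8 and Tlr7 lie on the X chromosome from 167242696 to 167264329 and from 167304929 to 167330558, and Tlr13 on the same chromosome from 106143204 to 106160493. Tlr3 spans 45395665 to 45411080 of chromosome 8, and Tlr9 spans 106222598 to 106226883 of chromosome 9.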

How the data were processed

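RNA sequencing of sorted brain macrophages was analysed from 6 deposited tables, 1 per library. Per the submitters' processing notes, the tools were bcl2fastq 2.20, DRAGEN, Picard, fastp and FastQC, and the build was mm10; what each tool did is not given in the sources used here. Per the file headers, the tables hold the authors' estimated counts per gene, TPM and effective lengths. Estimated counts as deposited were not scaled to depth and were rounded here, a change of at most 8.85e-05% in a library's total. TPM as deposited by the authors is relative to effective length and depth. Of 35598 identifiers, 35513 matched GENCODE M21. The library kit does not mark strand.

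The test on counts was edgeR 4.0.16 under R 4.3.3 (filterByExpr by age, TMM, robust quasi-likelihood F test, no covariate), with Benjamini-Hochberg adjustment over 10661 genes. Tests were two-sided. Values in CPM are TMM-normalized, as mean ± SD. The SE was derived from the log2 fold change and the F statistic. The method was tested on simulated data. A floor of 3 counts covers counting error only, since amplified reads without molecular identifiers are not independent molecules.

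Alternatives were DESeq2 1.42.0, its size factors in edgeR, limma 3.58.1 (voom, and trend on log2(TPM + 1) for genes averaging 1 TPM or more), no filter, genes averaging 50 CPM or more, a replicate block and leaving out each library. CPM per kilobase was added after seeing the data. Members, lists and tests were chosen with earlier results of these data known. Named beside the members are, per pathway list, the 2 most abundant genes and up to 3 per direction with at least 10 CPM and no overlap between ages; for Cd14 and the most abundant receptor of each class, the 3 nearest genes. Markers of dendritic cells, monocytes, T and NK cells and choroid plexus were summed too.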

Additional observations from a re-analysis of the deposited data

How the results depend on the processing

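No member was called under any of the 13 alternatives, which tested all 10 members except limma-trend on TPM (9) and the filter on 50 CPM (4), with 1 member, Cd14, at an unadjusted p under 0.05 in each. Over all genes, the 1 called higher and 0 called lower turned into 117 and 41 with DESeq2, 51 and 11 without a filter, 19 and 6 among genes averaging 50 CPM or more, and 0 and 0 with limma-voom (where 936 genes had an unadjusted p under 0.05); the cause was not tested. Leaving out a library gave 0 to 2 higher and 0 to 1 lower. Fitted signs reversed for Tlr3 in limma-voom (-0.56) and in limma-trend on TPM (-0.15), for Tlr7 without young replicate 3 (0.02), and for Tlr8 without young replicate 2 (0.12) and without aged replicate 3 (0.22). Without single libraries Tlr7 lay between -0.44 and 0.02 and Tlr8 between -1.03 and 0.22. The log2 ratio of endosomal to surface receptors, aged minus young, moved from -1.36 in TPM to -0.42 in CPM and -0.45 per kilobase, because the effective length no longer entered, and lay between -1.72 and -1.0 without single libraries. Same-numbered libraries of the 2 ages deviated with correlations of -0.0074, 0.0405 and 0.0992 over 2189 genes, 3 of 6 libraries correlated best with their own number, and a replicate block gave 1 gene higher, 0 lower and 0 members called. With 3 libraries a group, members under about 50 CPM had SEs of 0.68 to 1.86, which limits what could be detected.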

Other observations

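Markers of further cell types differed between single libraries more than between ages. Choroid plexus epithelium markers, led by Ttr, summed to 11862 CPM in young replicate 3 and 8022 CPM in aged replicate 3, against at most 1369 CPM elsewhere. Monocyte markers summed to 99.9 to 531.8 CPM in young and 118.2 to 434.8 CPM in aged libraries, dendritic cell markers to 1107 to 2030 and 1440 to 1836 CPM, and T and NK cell markers to 16.7 to 93.9 and 7.99 to 159.0 CPM. Bst2 and Cd209a led the dendritic cell sum, while Clec9a was at 0 in all libraries.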
